A study of Mus musculus with 14 samples.

Results

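The genes described here were 41 genes of DNA replication and S phase, a list widely used to score cells in S phase, among the 41934 genes of each of 2 deposited tables of mouse fetal brain. Members were taken by gene symbol. Each of the 41 symbols was found once at each age, so no choice among rows that share a symbol was needed. RNA sequencing had been done on whole brains of 14 male fetuses on a C57BL/6J background, with 4 Dio3+/+ and 2 Dio3-/- libraries at E13.5 (E for embryonic day) and 3 Dio3+/+ and 5 Dio3-/- libraries at E18.5. Dio3 encodes the type 3 deiodinase, the enzyme that clears thyroid hormone. The Dio3-/- fetuses carry point mutations, in every cell, that inactivate the enzyme but leave its mRNA in place, and they were compared in the study with wild type littermates.

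For each gene and age the values used here were a single number, the authors' mean normalized count over all libraries of that age with both genotypes pooled. No value per library, spread or n stood behind a single genotype, so no test was made, no error can be given, and Dio3-/- and Dio3+/+ were not compared. The 2 tables were normalized separately, and 33.3% of the libraries at E13.5 but 62.5% at E18.5 were Dio3-/-, so that age and genotype share cannot be told apart. The libraries were also made in 2 batches with different rRNA depletion kits and sequencers, between which the authors adjusted the counts. The labels do not assign batches to libraries, so the share of each batch at each age is unknown. Any part of batch in a difference between the ages cannot be told apart either. Dio3 itself had a mean normalized count of 99.0 at E13.5 and 129 at E18.5, which, being pooled and made from an mRNA that the mutation leaves in place, does not check the genotype labels.

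Cells copy their DNA once per division. In G1, CDC6 and its partners load the MCM helicase at origins and geminin later blocks reloading. In S phase the helicase is activated by CDC45 and GINS, polymerases copy both strands, the PCNA clamp holds them on DNA, and ribonucleotide reductase supplies the deoxynucleotides, while histone chaperones package the new DNA. Many of these genes are transcribed under E2F transcription factors as cells enter S phase. In the fetal brain dividing progenitors line the ventricles, and neurons that have left the cell cycle accumulate as gestation proceeds.

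All 41 members were expressed at both ages. Their mean normalized counts ran from 64.0 for Fen1 to 4626 for Nasp at E13.5 and from 16.6 for Fen1 to 2154 for Nasp at E18.5, so that each member passed a minimum of 10 at both ages. Summed over members, the mean normalized count was 53330 at E13.5 and 20180 at E18.5, or 0.187% and 0.0821% of the total of the table. In bulk tissue, fewer cells in S phase and less RNA per cell cannot be told apart.

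Because longer genes collect more reads, levels of different members were compared per kb of exon, within an age. The 8 highest members at E13.5 were Rrm2 (1084 mean normalized counts per kb), the regulatory subunit of ribonucleotide reductase, Pcna (872), the sliding clamp, Mcm4 (667), Uhrf1 (653), which brings the maintenance DNA methyltransferase to replicated DNA, Mcm6 (639), Nasp (615), a histone chaperone, Ubr7 (548), a ubiquitin ligase that acts on histones, and Usp1 (488), the enzyme that deubiquitinates PCNA. Per kb of the longest transcript, 6 of these 8 stayed among the 8 highest, with Nasp first (1470) and with Mcm2 (798) and Rrm1 (820) in place of Ubr7 and Usp1. Per kb of all exons Fen1 was the lowest at 26.4, so that the members spanned 41-fold. Most of the exon length of Fen1 overlaps another gene and could give no counted read, as described below, so the low end of this span is uncertain. At E18.5 the order began with Pcna (345 per kb), Ubr7 (316), Nasp (287) and Rrm2 (270), and the members spanned 50.3-fold. Of the 8 highest, 7 were shared by the ages, and Spearman's rho of the per-kb level between the ages was 0.96 over the 41 members, a description over genes of the same pooled libraries. The median member stood at 159 per kb at E13.5. The median protein-coding gene with a mean of at least 10 at both ages also stood at 159. At E18.5 the median member stood at 62.0, against 135 for those protein-coding genes. The number of members above the median of those genes was 20 at E13.5 and 14 at E18.5.

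Differences between the ages are given as the log2 ratio of the E18.5 mean to the E13.5 mean, less the median log2 ratio of the 17794 genes with a mean of at least 10 at both ages, so that the median gene lies at 0. As deposited, the median gene was 1.22-fold lower at E18.5, a log2 ratio of -0.28. On this scale all 41 members were lower at E18.5, with a median of -1.27 (2.41-fold lower), quartiles of -1.59 and -0.96 and a standard deviation over members of 0.49. A difference of 2-fold or more was seen in 29 of the 41 members (70.7%), all of them lower. Over all 17794 genes, 5.61% were lower by that much and 12.1% were higher, against 10.1% and 8.4% on the means as deposited. The quartiles of all genes were -0.36 and 0.47, and 3.66% of them lay at or below the median of the members.

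**Figure D1:**
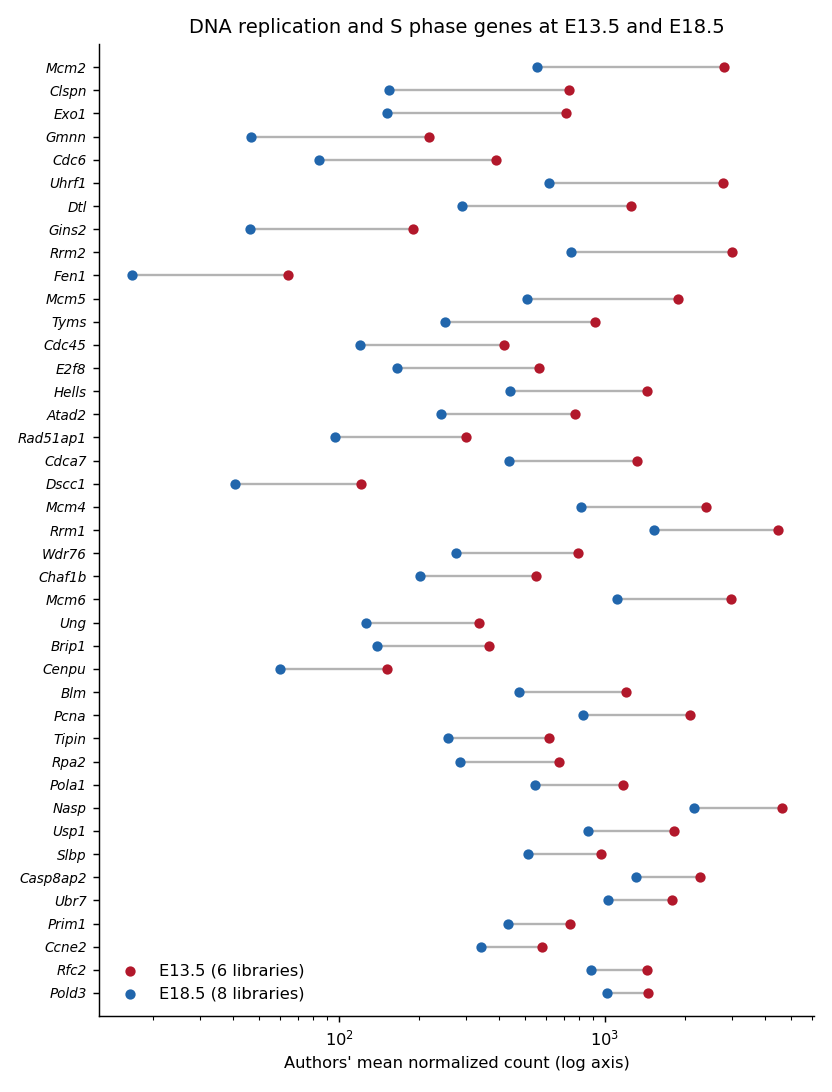
Authors' mean normalized count (log axis) of each of the 41 members at E13.5 (red, 6 libraries) and E18.5 (blue, 8 libraries), ordered by the difference between the ages, with no centring and no error available. Every blue point lies left of its red point, with the widest gap for Mcm2 (2790 and 556) and the narrowest for Pold3 (1456 and 1014). On these uncentred means, 11958 of the 17794 genes with a mean of at least 10 at both ages were also lower at E18.5.

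The 5 members with the largest difference were Mcm2, Clspn, Exo1, Gmnn and Cdc6. Mcm2 (chr6:88883474-88898780, minus strand, GRCm38), a subunit of the replicative helicase, had a mean normalized count of 2790 at E13.5 and 556 at E18.5, a log2 difference of -2.04 or 4.12-fold lower. Clspn (chr4:126556935-126593903, plus strand) encodes claspin, the adaptor by which stalled forks activate the checkpoint kinase CHK1, and its means were 729 and 154 (-1.96). Exo1 (chr1:175880581-175913489, plus strand), an exonuclease of mismatch repair and end resection, had means of 711 and 151 (-1.95). Gmnn (chr13:24751845-24761923, minus strand), which encodes geminin, had means of 217 and 46.7 (-1.93). Cdc6 (chr11:98907801-98923940, plus strand), the loader of the helicase, had means of 389 and 84.3 (-1.92). These 5 members stood at 24.3% to 26.4% of their E13.5 level relative to the median gene.

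The 5 with the smallest difference were Pold3, Rfc2, Ccne2, Prim1 and Ubr7. Pold3 (chr7:100082111-100121565, minus strand), an accessory subunit of DNA polymerase delta, had means of 1456 and 1014, a log2 difference of -0.24 or 1.18-fold lower. Rfc2 (chr5:134581366-134601805, plus strand), a subunit of the clamp loader, had means of 1433 and 883 (-0.41). Ccne2 (chr4:11191351-11204779, plus strand), which encodes cyclin E2 of the G1 to S transition, had means of 579 and 341 (-0.48). Prim1 (chr10:128015168-128030037, plus strand), the catalytic subunit of primase, had means of 737 and 432 (-0.49). Ubr7 (chr12:102757967-102777707, plus strand) had means of 1786 and 1030 (-0.51). These members stood at 70.2% to 84.7% of their E13.5 level on the same scale. At the 2-fold line, Blm (-1.05) and Pcna (-1.05) lay just beyond it and Tipin (-0.98) and Rpa2 (-0.96) just short of it.

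By role, origin licensing and the MCM helicase had the lowest median, -1.76, and all 6 of its members were lower by 2-fold or more. Besides Mcm2, Gmnn and Cdc6 these were Mcm5 (means of 1874 and 510, -1.59), Mcm4 (2396 and 809, -1.28) and Mcm6 (2980 and 1113, -1.14). The 3 genes of nucleotide supply followed at a median of -1.59. Among them Rrm2 (3003 and 747) lay at -1.72, Tyms (915 and 250), the thymidylate synthase, at -1.59, and Rrm1 (4488 and 1527), the catalytic subunit of ribonucleotide reductase, at -1.27.

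Helicase activation and origin firing had a median of -1.52 over 3 members, which was -0.98 over the 2 left by a minimum mean of 50, without Gins2. Gins2 (189 and 46.3) lay at -1.75 and Cdc45 (417 and 120) at -1.52, while Ccne2 was lower by less than 2-fold. The polymerases and primase had the median nearest to 0 of the 9 roles, -0.49, and none of the 3 members reached 2-fold. Next to Prim1 and Pold3 this role held Pola1 (1171 and 547, -0.82), the catalytic subunit of DNA polymerase alpha, which starts each new strand.

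The sliding clamp, clamp loading, Okazaki fragment and single-strand binding genes had a median of -1.05 (-0.94 with a minimum mean of 50, without Fen1 and Dscc1), with 3 of 5 members lower by 2-fold or more. Fen1 (64.0 and 16.6), the flap nuclease that trims Okazaki fragments, lay at -1.66, and Dscc1 (121 and 40.6), a subunit of an alternative clamp loader, at -1.29. Pcna (2093 and 828) lay at -1.05, Rpa2 (674 and 285), a subunit of the single-strand binding protein, at -0.96, and Rfc2 had the smallest difference. The fork protection, checkpoint and ubiquitin ligase genes divided: Clspn and Dtl (1252 and 289, -1.83), the substrate receptor of a ligase that degrades proteins on chromatin-bound PCNA, were lower by over 2-fold, whereas Tipin (616 and 256, -0.98) and Usp1 (1820 and 863, -0.79) were not.

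Among the 9 genes of histone supply, chromatin and DNA methylation the median was -1.16 and 5 were lower by 2-fold or more. These were Uhrf1 (2782 and 618, -1.89), the chromatin remodeler Hells (1439 and 439, -1.43), Atad2 (774 and 242, -1.39), Cdca7 (1315 and 434, -1.32), the partner of HELLS, and Chaf1b (551 and 202, -1.16), a subunit of the histone chaperone CAF-1. The other 4 were Nasp (4626 and 2154, -0.82), Slbp (966 and 515, -0.62), which encodes the protein that binds the stem-loop of histone mRNA, Casp8ap2 (2276 and 1304, -0.52), needed for histone mRNA synthesis and processing, and Ubr7. All 5 repair genes were lower by 2-fold or more, namely Exo1, Rad51ap1 (300 and 96.6, -1.35), which acts in homologous recombination, Ung (335 and 126, -1.13), the uracil-DNA glycosylase, Brip1 (366 and 139, -1.12) and Blm (1196 and 474, -1.05), the latter both DNA helicases. The remaining 3 members, E2f8 (564 and 165, -1.49), an E2F family repressor, Wdr76 (791 and 275, -1.24) and Cenpu (152 and 59.9, -1.06), a centromere protein, were also lower by 2-fold or more.

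Several members belong to complexes whose other subunits are not on the list. Those subunits were named here after their values had been seen. All 6 subunits of the MCM2-7 helicase were lower by 2-fold or more, from -2.04 for Mcm2 and -1.89 for Mcm3 (1863 and 414) to -1.36 for Mcm7 (3017 and 965) and -1.14 for Mcm6. Per kb, the highest subunit exceeded the lowest 1.7-fold at E13.5 and 2.98-fold at E18.5. GINS ranged from -1.75 for Gins2 to -0.56 for Gins4. In DNA polymerase delta the catalytic subunit Pold1 (1217 and 349) lay at -1.52 and the accessory subunit Pold2 (753 and 462) at -0.42, near Pold3, while Pold4 was listed at 0 at both ages. Replication factor C ranged from -1.30 for Rfc4 (380 and 127) to -0.37 for Rfc1 (1729 and 1100), and Rfc2 lay at the latter end. The catalytic subunit of DNA polymerase epsilon, Pole (1505 and 492), lay at -1.33 and its histone-fold subunit Pole4 (581 and 627) at 0.39. The origin recognition complex, none of whose subunits is a member, had a median of -0.14, with Orc1 at -1.08 and Orc5 at 0.09, the latter lower, not higher, on the means as deposited (662 and 579).

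**Figure D2:**
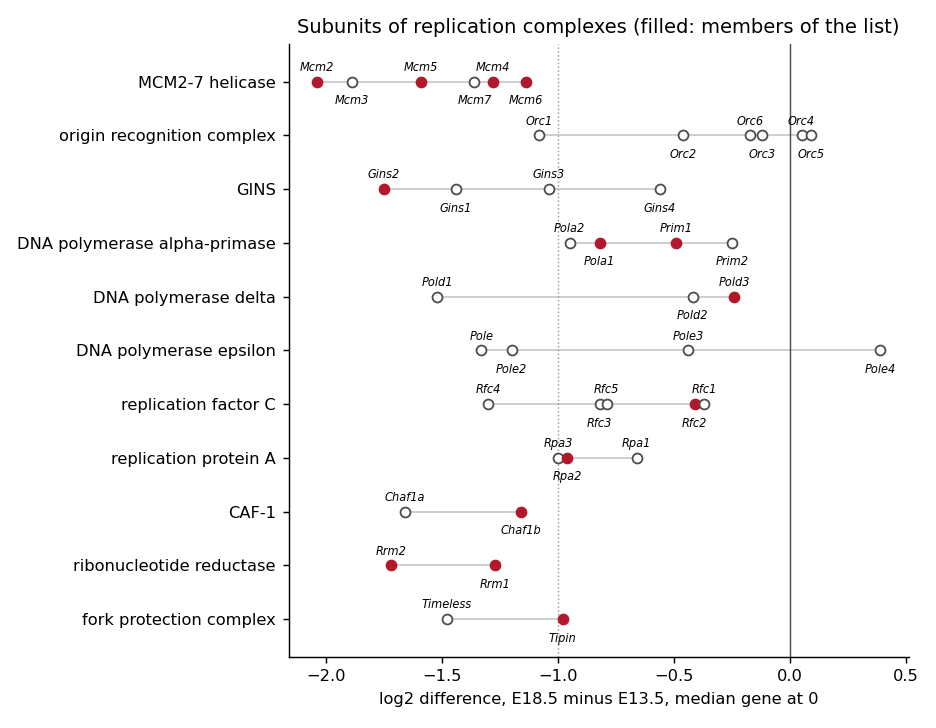
Difference between the ages (log2 ratio of E18.5 to E13.5, median gene at 0, dotted line at 2-fold lower) for each subunit of 11 replication complexes with a mean of at least 10 at both ages, members of the list filled. The subunits of the MCM2-7 helicase all lie beyond the dotted line (-2.04 to -1.14), whereas DNA polymerase delta spans -1.52 to -0.24 and the origin recognition complex -1.08 to 0.09, its Orc4 and Orc5 lying below 0 on the means as deposited.

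Of 55 other replication genes that are not members, 54 had a mean of at least 10 at both ages. Their median was -1.11, 51 were lower (53 on the means as deposited) and 30 (55.6%) were lower by 2-fold or more. The lowest were Mcm10 (533 and 113, -1.96) and Ticrr (1006 and 222, -1.89), both required for helicase activation, and the highest were Pole4 and Orc5. For 53 genes of G2 and mitosis the median was -1.70 and 43 (81.1%) were lower by 2-fold or more. Cdc20 (1249 and 223, -2.20), the activator of the anaphase-promoting complex, and Dlgap5 (834 and 157, -2.13), a spindle protein, were the lowest. At the other end were Jpt1 (6622 and 4537, -0.26) and Tubb4b, a beta tubulin, at 0.10, lower as deposited (2525 and 2223).

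Replication-dependent histone genes are transcribed in S phase and their mRNAs end in a stem-loop instead of a poly(A) tail. The libraries were made from RNA depleted of rRNA, which keeps such mRNAs. Of 67 genes named as Hist1 to Hist4, 49 had a mean of at least 10 at both ages, with a median of -1.93. Since the minimum applied at E18.5 too, histone genes that were low only at that age are missing from this median, and 10 of the 67 were listed at 0 at each age. Hist1h3b (332 and 29.7, -3.20) and Hist1h4m (152 and 17.8, -2.81) were the lowest, and Hist2h2be (564 and 288, -0.69) and Hist3h2a (893 and 650, -0.17) the highest. Summed over the 67 genes, the mean normalized count was 104907 at E13.5 and 26521 at E18.5.

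Markers of the cell types that a fetal brain sample can hold also differed between the ages, and their part in the members' difference was not tested. Medians are over markers with a mean of at least 10 at both ages, summed means are over every marker with a row, and none of these was listed at 0. Of 12 neural progenitor markers, 10 were lower at E18.5 and the median was -1.22, their summed mean being 80751 at E13.5 and 36964 at E18.5. Nes (13679 and 2548, -2.14), the intermediate filament nestin, and Prom1 (2250 and 629, -1.56) were the lowest, and Fabp7 (5848 and 7425, 0.63) and Slc1a3 (3840 and 7489, 1.25), both also expressed by astrocytes, were the highest. The 5 of 6 intermediate progenitor markers with a mean of at least 10 at both ages were all lower (median -1.94, summed mean 11970 and 3392), from Neurog2 (-2.64) and Btg2 (-2.0) to Insm1 (-0.91) and Eomes (-0.30). Neurog1 (413 and 7.89) was also lower but fell below that minimum at E18.5, so it has no log2 value here. Of 12 neuron markers 10 were higher (8 on the means as deposited), with a median of 0.70 and a summed mean of 215441 at E13.5 and 243610 at E18.5, from Nefm (-0.36) and Tubb3 (-0.04) to Syn1 (1.55) and Snap25 (1.68), both genes of the synaptic vesicle cycle. The 5 of 6 astrocyte markers with a mean of at least 10 at both ages were all higher (median 1.96, summed mean 4673 and 17931), from Gjb6 (1.37) and Aldh1l1 (1.48) to Sparcl1 (2.16) and Aqp4 (4.79). Gfap (4.71 and 501) was also higher but lay below that minimum at E13.5, so it has no log2 value here. All 8 markers of the oligodendrocyte lineage were higher (median 1.11, summed mean 4322 and 9411), from Mbp (0.74) to Gpr17 (3.75) and Olig1 (3.76).

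Among cells from outside the neural lineage, 3 of 8 erythroid markers had a mean of at least 10 at both ages, among them Slc4a1 (944 and 96.6, -3.01) and Alas2 (462 and 272, -0.48), and the summed mean of the list was 1659 and 415. Mesenchyme and meninges markers had a median of -0.71 (summed mean 25513 and 14972), from Twist1 (-2.55) and Lum (-2.01) to Dcn (0.45) and Pdgfra (1.05). Pdgfra is also on the list of oligodendrocyte lineage markers. The 7 of 8 microglia markers with a mean of at least 10 at both ages had a median of 0.65 (summed mean 1585 and 1914), from Aif1 (0.10, lower on the means as deposited) and Cx3cr1 (0.33) to Fcrls (0.76) and C1qa (1.10). Endothelium markers had a median of 0.08, which is below 0 on the means as deposited (-0.20), with equal totals per kb (-0.01) and with equal totals without Gm26917 (-0.02), and ran from Tie1 (-0.58) and Emcn (-0.31) to Cldn5 (0.93) and Flt1 (1.19), their summed mean being 8647 at E13.5 and 8514 at E18.5.

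**Figure D3:**
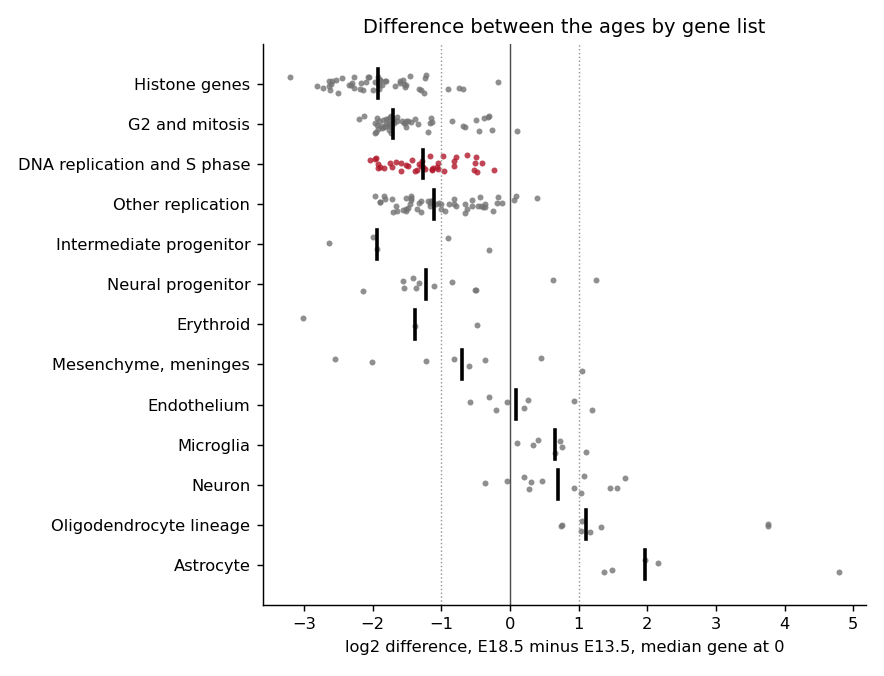
Difference between the ages (log2 ratio of E18.5 to E13.5, median gene at 0, dotted lines at 2-fold) of each gene with a mean of at least 10 at both ages, by list, with the median of each list as a bar and the 41 members in red. The members (median -1.27) lie between G2 and mitosis genes (-1.70) and other replication genes (-1.11), neuron (0.70) and astrocyte (1.96) markers lie to the right, and the endothelium median (0.08) is the one whose sign depends on the scaling.

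The counting did not use strand, and in union mode a read on exons of more than 1 gene is counted for none of them, so an overlap on either strand takes reads away from a member and lowers its level per kb. Exons of 10 of the 41 members overlap another gene, all on the opposite strand, and for 6 the overlap covers at least 10% of the exon length. Fen1, the lowest member, overlaps the antisense gene Gm10143 over 78.8% of its exon length and Tmem258 over 5.37%. Gins2 overlaps Gse1 over 67.3%. The other overlaps of at least 10% are Cenpu with Primpol (26.7%), Ccne2 with Ints8 (17.4%), Rfc2 with Lat2 (15.1%) and E2f8 with Gm2788 (11.2%), and the smaller ones are those of Slbp, Ubr7, Cdc45 and Dscc1 (4.49% to 7.8%). The levels of Fen1 and Gins2 are the most uncertain for this reason, since most of their exon length could give no counted read. The 31 members without an overlap include Mcm2, Clspn, Exo1, Gmnn, Cdc6 and Pold3.

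The promoters of the members were also read for the sequence that E2F factors bind. Any part of that sequence in the difference between the ages was not tested. RefSeq promoter windows (GRCm38.p6, 250 bases before to 50 after the annotated start) were held for 31 of the 41 members; Atad2, Ccne2, Dscc1, Exo1, Gins2, Gmnn, Mcm4, Rfc2, Tipin and Usp1 had none. The E2F word was any of TTTCCCGC, TTTCGCGC, TTTGCCGC and TTTGGCGC, on either strand, overlapping matches counted, and 12 of the 31 members (38.7%) held at least 1. Of the windows below, 4 are of members with large differences and 2 of members with small ones. Each is 30 bases on the strand of the gene with the word in capitals, and a word that starts with GCG is on the opposite strand.
Clspn, chr4:126556990-126557019, plus strand, difference -1.96: accgcgtctggGCGCGAAAgctcgaacttc
Cdc6, chr11:98908002-98908031, plus strand, difference -1.92: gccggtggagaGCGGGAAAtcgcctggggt
Uhrf1, chr17:56304117-56304146, plus strand, difference -1.89: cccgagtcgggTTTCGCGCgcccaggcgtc
Dtl, chr1:191575534-191575563, minus strand, difference -1.83: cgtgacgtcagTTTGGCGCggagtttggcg
Ubr7, chr12:102757968-102757997, plus strand, difference -0.51: cggcggccactTTTCCCGCctcctcctggg
Pold3, chr7:100121467-100121496, minus strand, difference -0.24: gagcgaagctgTTTCCCGCcggcgggagct

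Mcm5 held 2 words that overlap, and the upstream word of Mcm6 overlaps its neighbour too. They are shown because no other members held more than 1 word.
Mcm5, chr8:75109345-75109374, plus strand, difference -1.59: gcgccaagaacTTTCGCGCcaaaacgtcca
Mcm6, chr1:128359797-128359826, minus strand, difference -1.14: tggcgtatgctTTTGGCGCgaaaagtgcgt
Mcm6, chr1:128359734-128359763, minus strand, difference -1.14: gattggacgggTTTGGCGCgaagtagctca
The words of Dtl, Mcm6, Cdc6, Mcm5 and Uhrf1 begin 8 to 185 bases before the start, and those of Clspn, Ubr7 and Pold3 begin 5 to 22 bases after it. Hells, Cdca7, Pola1 and Casp8ap2 were the other members with a word.

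Among genes with a window, the E2F word was in 37.0% of 46 other replication genes and in 6.38% of 47 G2 and mitosis genes. It was in 4.51% of 11328 protein-coding genes with a mean of at least 10 at both ages and in 2.6% of all 27025 genes with a window. The median GC content of the windows was 60.0% for members and 60.7% for these protein-coding genes. CCAAT, the core of the NF-Y site, was found in 71.0% of members, 52.2% of other replication genes, 76.6% of G2 and mitosis genes and 42.6% of protein-coding genes. TTTGAA, the core of the cell cycle homology region (CHR) of mitotic promoters, was found in 19.4% of members, against 70.2% of G2 and mitosis genes and 14.1% of protein-coding genes. A match describes the letters of a window and shows no binding, and a window without a match does not show that binding is absent.

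**Figure D4:**
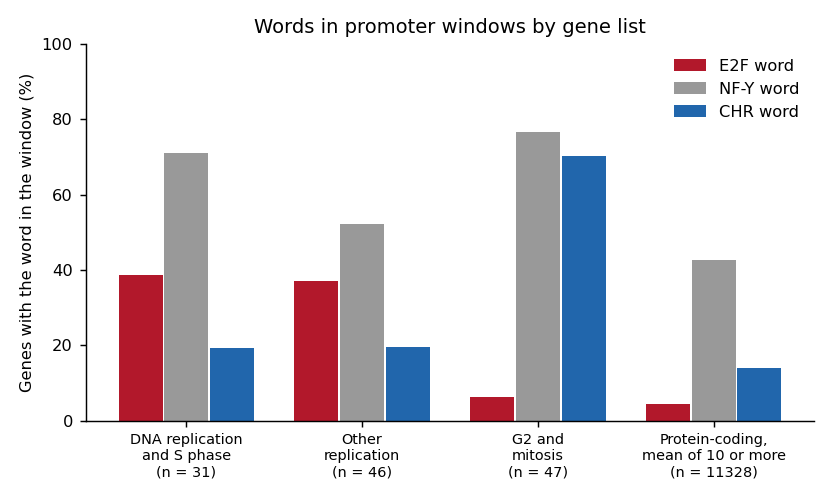
Percent of genes whose RefSeq promoter window holds an E2F word (red), an NF-Y word (grey) or a CHR word (blue), by list, each list with the number of genes that have a window. The E2F word stands at 38.7% for the members and 37.0% for other replication genes but at 6.38% for G2 and mitosis genes, where the CHR word stands at 70.2%.

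Within the list, the differences of members with and without the word overlapped. The 12 members with an E2F word had a median of -1.37 and quartiles of -1.85 and -0.74. The 19 with a window but no word had a median of -1.16 and quartiles of -1.51 and -1.05. The share lower by 2-fold or more went the other way, with 8 (66.7%) of those with the word and 15 (78.9%) of those without. Over all 17794 genes that share was 5.61%. The word was found in Clspn, near the largest difference, and in Pold3, at the smallest. Mcm2, with the largest difference, had a window but no word. Outside the cell cycle lists, 479 protein-coding genes with the word had a median of -0.16 and 10726 without it a median of 0.02, and 4.8% and 4.65% of them were lower by 2-fold or more.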

How the data were processed

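Per the labels and the methods of the study, RNA of whole brains of single male fetuses was depleted of rRNA and sequenced in 2 batches, which the labels do not assign to libraries. The authors trimmed reads with Cutadapt 3.1, aligned them with STAR 2.5.3a, made unstranded HTSeq counts (union mode) per GENCODE gene, adjusted these between batches with ComBat-seq and ran DESeq2 1.30.1 within each age. The values used are a signal that the authors deposited per age: the mean over all libraries of counts divided by size factors. The other columns of the tables hold the authors' own comparison of genotypes (log2 fold change, standard error, statistic, p-values) and were not used. There were 0 unused columns with values of single samples. Depth per library is unknown.

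Levels per kb used the union exon length of GENCODE M21 (GRCm38), 1 release before that of the authors, which matched 41897 genes and left 37 unmatched. Ratios were computed with pandas 2.3.3 and numpy 2.4.6 for genes with a mean of at least 10 at both ages, with no pseudocount, less the median log2 ratio, and tested on simulated data. Members and lists were chosen with earlier results of these data known. All members may be named; described in most detail are the 8 highest per kb at E13.5, the 5 most and 5 least different members and those with exon overlaps, and from every other list the 2 lowest and 2 highest genes, some of which are not reported here. Of 34 promoter windows of members, 30 end within an annotated transcript of their gene. The planned count test of genotypes needed counts per library and was not run. Alternatives were another scaling between ages, another minimum, a pseudocount of 1 and another gene length.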

Additional observations from a re-analysis of the deposited data

How the results depend on the processing

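The median difference of the members, -1.27, was -1.56 on the means as deposited, -1.15 with a minimum mean of 50 (37 members) and -1.37 with each table scaled to the same total without Gm26917, a setting added after seeing the data because that gene holds 4.62% of the total at E13.5 and 2.22% at E18.5. Under every setting tried, each member measured was lower at E18.5. The number lower by 2-fold or more ran from 25 of 37 (minimum of 50) to 34 of 41 (as deposited), against 29. Over all genes, 5.02% of 13433 were lower by that much with the minimum of 50, and 10.1% of 17794 as deposited. As deposited, 11958 of all 17794 genes with a mean of at least 10 at both ages were lower too. The minimum of 50, which leaves out Gmnn, Gins2, Fen1 and Dscc1, also moved the role medians of licensing to -1.58, of helicase activation to -0.98 and of the clamp genes to -0.94. With the longest transcript as the length, the 8 members highest per kb shared 6 genes with the main order at E13.5, while the E18.5 order shared 7. The median of endothelium markers, 0.08, turned to -0.20 as deposited, -0.01 with equal totals per kb and -0.02 with equal totals without Gm26917, since these settings move all genes down together. Without a filter beyond a mean above 0, 10.5% of 29958 genes were lower and 17.3% higher by 2-fold or more. No paired analysis was possible because the values used were pooled over libraries. For the same reason DESeq2 and edgeR, the fit without a filter on low counts, each library left out and the replicate number as a block were not run for the genotypes. With pooled means, no error can be set beside any difference.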
